A study of Mus musculus with 12 samples.

Results

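The 10 Toll-like receptor genes Tlr1 to Tlr9 and Tlr13 were chosen by their symbols from the 21004 genes of a table of spleen RNA sequencing. All 10 were found. Values are FPKM, fragment counts divided by transcript length and library size. The 12 libraries came from spleens of ICR mice, an outbred stock, aged 8 weeks, with 3 libraries in each of 4 groups. These were a control group, a busulfan group, a group on L.J. (10 mg/kg), and mice given L.J. (10 mg/kg) on top of busulfan, written busulfan + L.J. here. Busulfan is an alkylating drug that kills blood-forming cells. What L.J. stands for, the busulfan dose and the time of collection are not in the labels, and the design text also names FMT, which no sample label carries. Whether each library is a mouse of its own is not stated, so the p-values measure the spread between these libraries, which may be technical.

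Toll-like receptors are membrane proteins that bind conserved molecules of microbes and, through adaptors such as Myd88 and Ticam1, activate NF-kB and interferon regulatory factors. Tlr1, Tlr2, Tlr4, Tlr5 and Tlr6 act at the cell surface and bind bacterial lipoproteins, lipopolysaccharide or flagellin, while Tlr3, Tlr7, Tlr8, Tlr9 and Tlr13 sit in endosomes and most of them bind nucleic acids. In the mouse spleen, B cells carry much Tlr1, Tlr7 and Tlr9, plasmacytoid dendritic cells carry Tlr7 and Tlr9, and monocytes and macrophages carry Tlr2, Tlr4, Tlr8 and Tlr13.

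The genes lie on 7 chromosomes of mm10 (positions from RefSeq on the same assembly, GRCm38.p6, counted from 1). Tlr1 (gene 21897, chr5:64924680-64933600, minus strand) and Tlr6 (gene 21899, chr5:64953092-64970942, minus strand) are neighbours, as are Tlr7 (gene 170743, chrX:167303380-167330574, minus strand) and Tlr8 (gene 170744, chrX:167241123-167264329, minus strand). Tlr13 (gene 279572, chrX:106143275-106160493, plus strand) lies elsewhere on that chromosome. Tlr9 (gene 81897) is at chr9:106222598-106226876 on the plus strand and Tlr2 (gene 24088) at chr3:83836272-83841824 on the minus strand. Tlr4 (gene 21898, chr4:66827551-66846581) and Tlr5 (gene 53791, chr1:182954752-182976044) are on the plus strand. Tlr3 (gene 142980, chr8:45395665-45411075, minus strand) shares exon bases with the antisense gene Gm45542 of GENCODE M21, and since the handling of strand is not given in the sources used here, reads of the 2 cannot be told apart.

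Coding sequences are 2352 to 2715 bases long for Tlr1 to Tlr6 and 2973 to 3150 for Tlr7, Tlr8, Tlr9 and Tlr13. The coding sequences of Tlr1 and Tlr6 share a run of 229 identical bases, from base 1468 to 1696 of Tlr1 and from 1507 to 1735 of Tlr6. Of all stretches of 50 bases in the coding sequence, 19.4% of those of Tlr1 and 19.2% of those of Tlr6 occur in the other gene, whereas no other pair of the 10 shares a run longer than 16 bases. The run is shown because a read from it fits both genes, so the levels of Tlr1 and Tlr6 depend on how the authors assigned such reads:
Tlr1 and Tlr6, shared coding run, chromosome 5, minus strand: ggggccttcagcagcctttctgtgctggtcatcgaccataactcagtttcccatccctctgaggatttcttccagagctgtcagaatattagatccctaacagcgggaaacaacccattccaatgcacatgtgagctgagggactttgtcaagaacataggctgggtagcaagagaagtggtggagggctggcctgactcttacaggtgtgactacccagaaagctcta

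RefSeq promoter windows (GRCm38.p6) were on hand for 8 of the 10 genes, as 10 windows. The 250 bases before the transcript start of each window were searched on both strands for 7 motifs. For Tlr1, Tlr2, Tlr3, Tlr5 and Tlr6 that start lies inside the gene span given above. There, part or all of the bases searched are within the gene. The core bound by PU.1, the transcription factor of myeloid and B cells, GAGGAA, was in 1 window each of Tlr1, Tlr8, Tlr9 and Tlr13, against 23.25% of all 32851 mouse promoter windows. These 4 are shown because they held the core. Their levels did not all go together in the correlations over the libraries described below. Tlr1 with Tlr9 had 0.78 and Tlr8 with Tlr13 had 0.71. The remaining pairs among them lay between -0.58 (Tlr1 with Tlr13, the lowest of all 45 pairs) and 0.02 (Tlr8 with Tlr9). Tlr2 with Tlr6 also had 0.71, with no core in the windows searched. The part of the core in the levels was not tested. Capitals mark the core (TTCCTC where it reads on the other strand), and sequences run 5′ to 3′ along the gene:
Tlr9, chr9:106222348-106222597, plus strand: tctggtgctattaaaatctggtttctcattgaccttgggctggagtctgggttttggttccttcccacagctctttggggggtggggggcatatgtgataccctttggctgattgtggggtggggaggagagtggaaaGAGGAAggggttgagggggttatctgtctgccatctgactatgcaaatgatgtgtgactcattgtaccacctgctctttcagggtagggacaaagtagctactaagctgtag
Tlr1, chr5:64933564-64933593, minus strand: aattaaatgttgGAGGAAgtaggagcttga
Tlr8, chrX:167264330-167264579, minus strand: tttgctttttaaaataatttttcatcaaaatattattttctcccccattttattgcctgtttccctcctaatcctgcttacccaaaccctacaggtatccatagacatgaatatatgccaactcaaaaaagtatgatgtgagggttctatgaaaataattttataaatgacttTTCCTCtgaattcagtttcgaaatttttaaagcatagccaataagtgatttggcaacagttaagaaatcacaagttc
Tlr13, chrX:106143174-106143203, plus strand: cctaaaaaaaaaagagaaGAGGAAggaaat

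The core ended 107 bases before the transcript start of its window for Tlr9, 78 for Tlr13, 72 for Tlr8 and 18 for Tlr1. The Tlr1 core lay inside the Tlr1 gene span given above. The Tlr9 window also holds the octamer of Oct factors (ATTTGCAT, 72 to 65 bases before the start, in 1.6% of all windows) and an AP-1 element (TGANTCA, 58 to 52 bases before it, in 6.75%). An NF-kB motif, in 3.9% of all windows, was found in the windows of Tlr2 and Tlr3. A repeated IRF element (GAAANNGAA, 7.13%) was in windows of Tlr6 and Tlr8. The Tlr8 window held a TATA box (TATAAA, 12.37%), as did 1 Tlr6 window, and CCAAT (33.85%) was found in windows of Tlr1, Tlr5 and Tlr8. In none of the 4 windows did the PU.1 core overlap another motif. These are matches of letters and not measured binding.

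The FPKM of all genes in a library added up to 511876 to 580364, and the read depth behind them is unknown. Spic, the factor of red pulp macrophages of the spleen, was at 33.65 to 65.2 FPKM in all 12 libraries. Correlations of log2(FPKM + 1) were 0.962 to 0.993 within groups and 0.943 to 0.993 across them. Busulfan libraries 1 and 2 stood apart. Their acinar marker score, the mean log2(FPKM + 1) of 9 genes of the exocrine pancreas, was 11.5 and 7.62, that of L.J. library 3 was 8.58, and those of the controls were 0.405 to 0.464. Their neutrophil marker score was 8.99 and 8.12, against 4.08 to 5.84 in the 10 others, and their B cell marker score was 6.72 and 6.71, against 7.29 to 7.86. In whole spleen, fewer cells of a type and less RNA per cell cannot be told apart.

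FPKM corrects for length, so levels can be set side by side across genes. Those of Tlr1 and Tlr6 also depend on how reads from their shared stretches were assigned. Tlr1, which pairs with Tlr2 to bind triacylated lipoproteins, was far the most abundant, with a mean of 48.9 FPKM over the 12 libraries (range 38.62 to 61.39) and 45.1% of the summed FPKM of the 10 genes. Tlr9, the receptor for unmethylated CpG DNA, followed at 17.0 FPKM (9.87 to 22.43), and Tlr7, which binds RNA rich in guanosine and uridine, at 11.9 (6.62 to 19.79). Tlr6, the other lipoprotein partner of Tlr2, had a mean of 6.77 FPKM. Tlr3, which binds double-stranded RNA, had 6.16 and Tlr13, the mouse receptor for bacterial ribosomal RNA, 5.38. Tlr2 had 4.12, Tlr4, the receptor for lipopolysaccharide, 3.92, and Tlr8 3.27. Tlr5, the flagellin receptor, came last at 1.04 FPKM (0.74 to 1.36), and its 4 group means lay between 1.00 and 1.06 FPKM, at the edge of the filter of 1 FPKM that all 10 genes passed.

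Neighbours in this order were clearly apart only at its ends. The ranges of Tlr1 and Tlr9 did not overlap, nor did those of Tlr8 and Tlr5. Tlr9 exceeded Tlr7 in 11 of 12 libraries, Tlr7 exceeded Tlr6 in 11, and Tlr13 exceeded Tlr2 in 12, although their ranges over all libraries overlapped. Tlr2 exceeded Tlr4 in only 7 of 12. The spread over the libraries was widest for Tlr7, with a coefficient of variation of 33.5% and a 2.99-fold range, and narrowest for Tlr6, with 11.6% and a 1.45-fold range. Tlr1, the most abundant, varied by 14.4%.

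**Figure D1:**
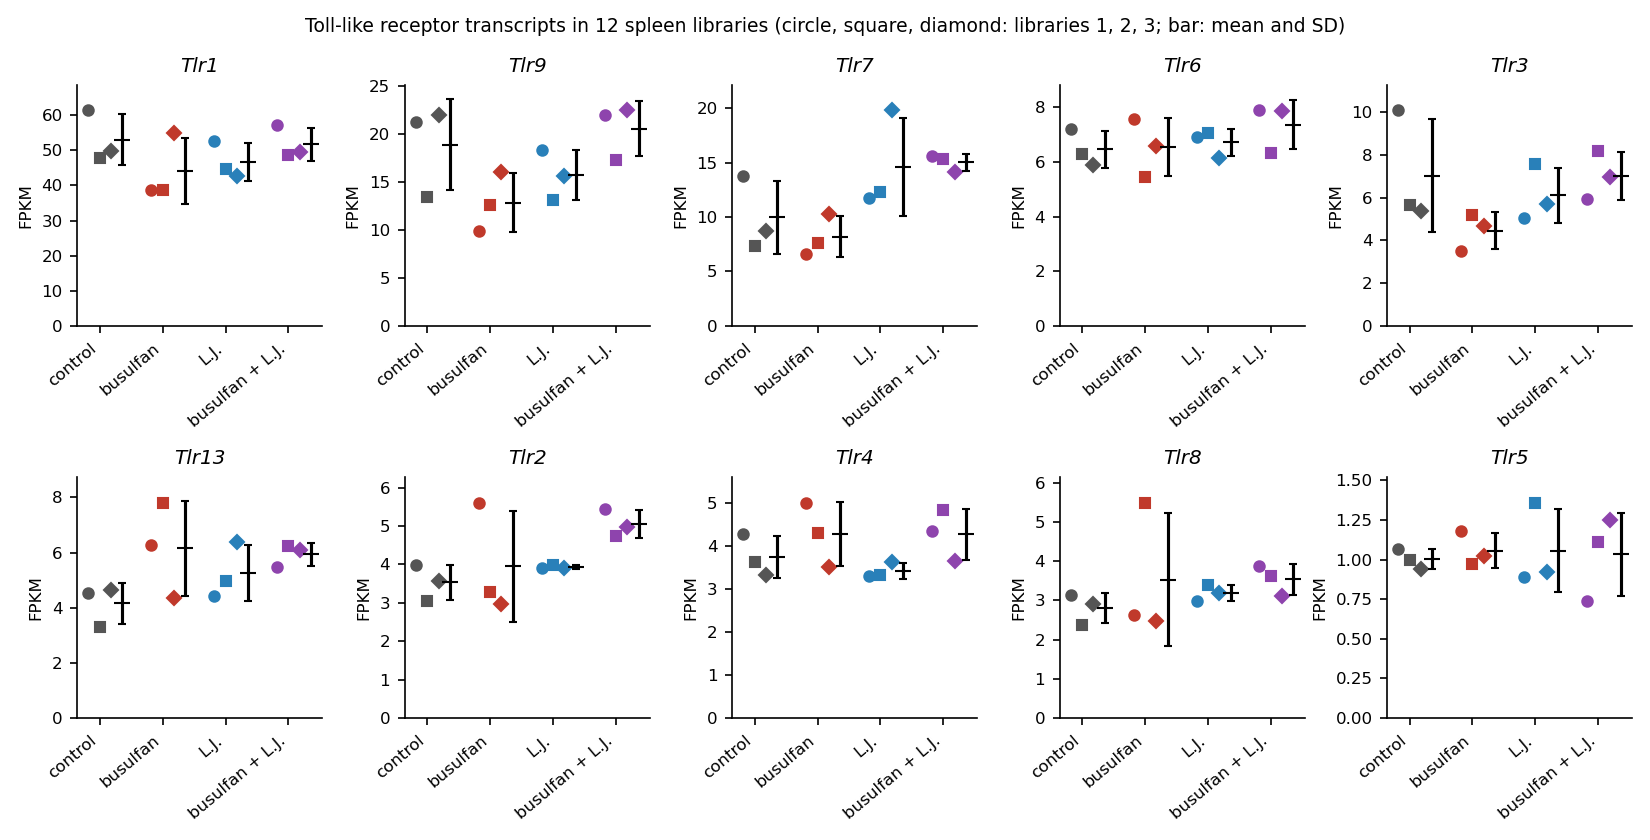
FPKM (vertical axis, linear from 0, a scale of its own in each panel) of the 10 Toll-like receptors in the 12 spleen libraries by group, with circle, square and diamond for libraries 1, 2 and 3 and a bar for the group mean and SD. Tlr7 stands at 14.12 to 15.56 FPKM in busulfan + L.J. and at 6.62 to 10.31 in busulfan, Tlr8 in busulfan is high in library 2 only, at 5.49, and Tlr5 stays between 0.74 and 1.36.

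Differences between groups were tested with limma on log2(FPKM + 1) over the 13138 genes that reached a mean of 1 FPKM in at least 1 group, with Benjamini-Hochberg adjustment over all of them and a threshold of 0.05. None of the 10 receptors passed it in any of the 6 contrasts. The values below are therefore given as differences with their intervals, and none is called a change.

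The first comparison, busulfan against control, concerns the effect of busulfan by itself. Of all genes tested, 0.0304% passed the threshold in this contrast, and 0 of the 10 receptors did. The endosomal receptors Tlr3 and Tlr9 were lower with busulfan and Tlr13 was higher, each by 0.45 to 0.52 on the log2 scale. Tlr1 was lower by 0.27, and the other 4 surface receptors differed by 0.01 to 0.15. By limma, 3 of the 10 had an unadjusted p below 0.05, against 12.2% of all genes, and 6 were higher and 4 lower, with a median log2 difference of 0.02 against -0.03 over all genes.

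Tlr9 stood at 21.18, 13.45 and 21.97 FPKM in the controls and at 9.87, 12.59 and 15.98 in busulfan libraries 1 to 3. The groups overlapped, since control library 2 lay below busulfan library 3, and busulfan library 1 was the lowest of all 12. The means were 18.9 ± 4.71 and 12.8 ± 3.06 FPKM (SD, n = 3), which is -0.52 on the log2 scale (SE 0.21, limma adjusted p = 0.366). Without the 3 libraries of highest acinar score, which leaves 1 busulfan library, it came to -0.20.

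Tlr3 read 10.09, 5.65 and 5.36 FPKM in the controls and 3.49, 5.20 and 4.68 with busulfan. The groups did not overlap, but by only a narrow gap, and control library 1 was the highest of all 12. With busulfan Tlr3 differed by -0.52 (SE 0.22, limma adjusted p = 0.377). It came to -0.27 without control library 1 and to -0.21 with the acinar score as a covariate.

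Tlr13 read 4.52, 3.31 and 4.66 FPKM in the controls and 6.28, 7.81 and 4.35 with busulfan. Busulfan libraries 1 and 2 lay above every control and library 3 lay among the controls. Tlr13 differed by 0.45 on the log2 scale (SE 0.19, limma adjusted p = 0.369). It came to 0.64 without busulfan library 3, where it passed the threshold (adjusted p = 0.049), and to 0.06 without the 3 libraries of highest acinar score, which leaves 1 busulfan library.

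Tlr8, whose ligand in the mouse is not settled, followed a like outline in 1 library only. It read 3.14, 2.38 and 2.90 FPKM in the controls and 2.62, 5.49 and 2.48 with busulfan, so that busulfan library 2 held the highest value of the 12 and the other 2 lay among the controls. The log2 difference was 0.19, with an unadjusted 95% interval from -0.26 to 0.64.

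Tlr1 read 61.39, 47.80 and 49.86 FPKM in the controls and 38.67, 38.62 and 54.83 with busulfan. Busulfan libraries 1 and 2 held the lowest values of all 12, and library 3 lay within the control range. The log2 difference was -0.27 (interval -0.62 to 0.07). Without the 3 libraries of highest acinar score, which leaves 1 busulfan library, it came to 0.06.

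Of the other surface receptors, Tlr2 differed by 0.09, Tlr4 by 0.15, Tlr5 by 0.04 and Tlr6 by 0.01 on the log2 scale. The interval of Tlr6 ran from -0.28 to 0.29. Tlr2 was again uneven within the busulfan group, at 5.61, 3.28 and 2.97 FPKM against 3.98, 3.06 and 3.57 in the controls. Tlr7 differed by -0.23 (interval -0.75 to 0.29).

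Cell type markers also differed in these libraries. All 8 B cell markers were lower with busulfan, with a summed level of 1316 to 2774 FPKM against 2778 to 3135 in the controls, and 0 of the 8 passed the threshold. Of 6 monocyte markers 4 were higher, with a summed level of 106 to 200 FPKM against 73.33 to 119, and 0 passed. All 4 plasmacytoid dendritic cell, all 4 marginal zone macrophage and all 6 erythroid markers were lower, and 0 passed. So were 5 of 7 red pulp macrophage and 4 of 6 conventional dendritic cell markers, with 0 passed. Of 6 T cell markers 3 were higher and 3 lower, with 0 passed. All 9 neutrophil markers were higher (1297 to 27010 FPKM against 525 to 846), as were all 9 acinar markers (169 to 44208 FPKM against 7.64 to 8.00), and 0 of either list passed. All 5 endothelial markers were lower and 0 passed, with 69.78 to 83.33 FPKM against 92.16 to 111. Markers of neighbouring organs were lower than in the controls too. All 3 kidney tubule markers were lower and 1 passed, Slc34a1, a phosphate transporter (-1.47, limma adjusted p = 0.0309), with a summed level of 2.96 to 8.48 FPKM against 22.39 to 47.04. All 6 hepatocyte markers were lower and 0 passed, with 6.55 to 13 FPKM against 24.73 to 89.98. The markers of these 2 organs were lower than in the controls in the other treated groups as well. Kidney tubule markers summed to 3.93 to 4.62 FPKM with L.J. and to 0.81 to 2.38 with busulfan + L.J. Hepatocyte markers summed to 12.88 to 17.93 and 8.13 to 10.27 FPKM in the same 2 groups. No marker of these lists was at 0 in a whole group. The part of these cell types and organs in the receptor levels was not tested.

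Of the genes that work with the receptors, listed by role further on, 0 of 57 passed in this contrast, and by limma 11 had an unadjusted p below 0.05, which is 19.3% against 12.2% of all genes. The 3 with the smallest p were Hsp90b1, the endoplasmic reticulum chaperone that folds most Toll-like receptors, at 0.72 (limma adjusted p = 0.211), Cd180, the B cell relative of Tlr4, at -0.70 (0.244), and its partner Ly86 at -0.43 (0.28).

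**Figure D2:**
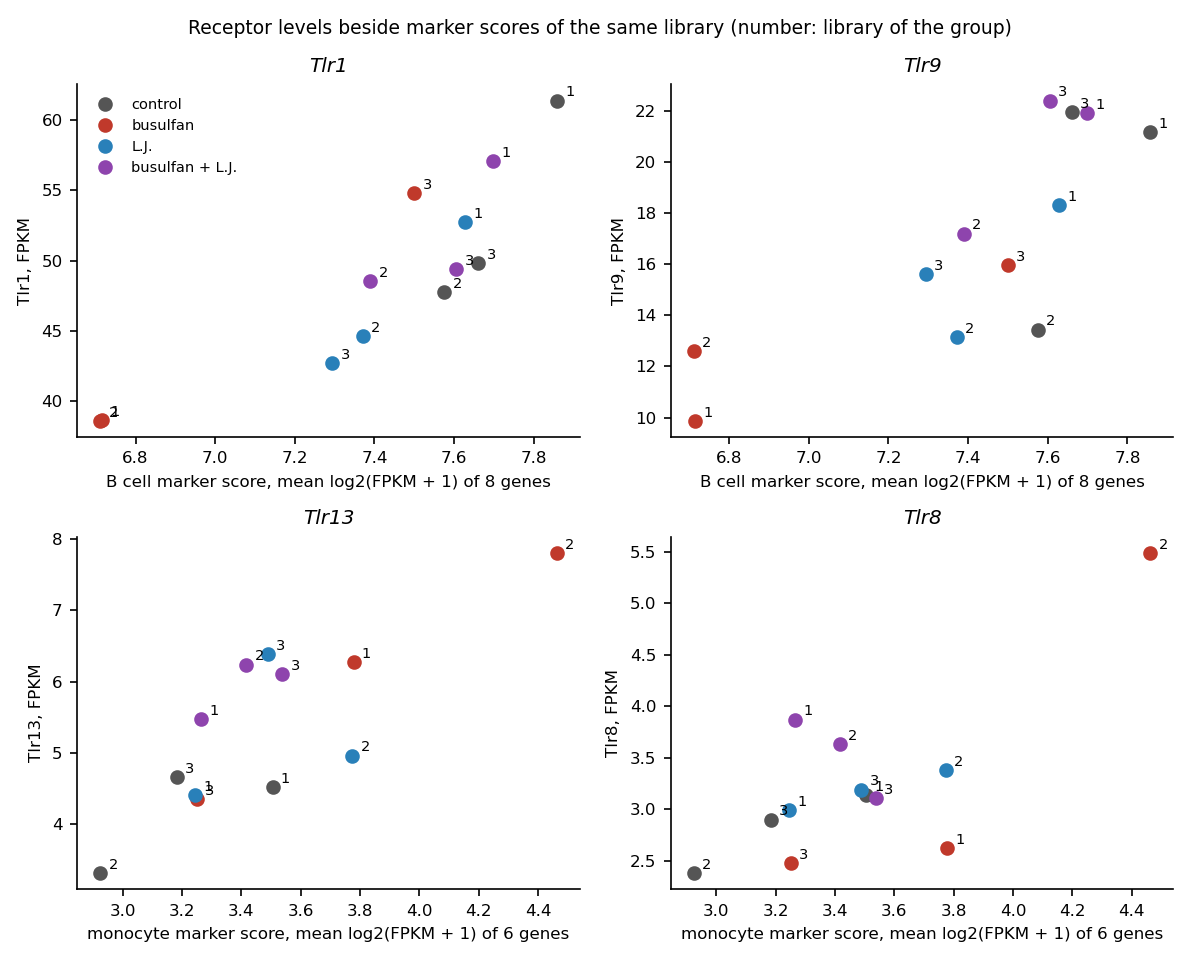
Receptor level in FPKM (vertical axes, not from 0) against a marker score of the same library (horizontal axes, mean log2(FPKM + 1) of 8 B cell genes above and 6 monocyte genes below), with 1 point per library, coloured by group and numbered within it. Busulfan libraries 1 and 2 have the lowest B cell scores, 6.72 and 6.71, and the lowest Tlr1, and busulfan library 2 has the highest monocyte score, 4.46, with the highest Tlr13 and Tlr8. Other receptors carried by these cells are not shown. Tlr7 read 7.64 FPKM in busulfan library 2 and 7.36 in control library 2, whose B cell score was 7.575. Tlr2 read 3.28 FPKM in busulfan library 2.

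Across the 12 libraries the receptors did not move as a block. Over the 45 pairs of receptors the median Pearson correlation of log2(FPKM + 1) was 0.12, and 14 pairs were below 0. The 3 highest were Tlr1 with Tlr9 (0.78), Tlr2 with Tlr6 (0.71) and Tlr8 with Tlr13 (0.71). With group means removed these were 0.70, 0.62 and 0.67. The values are descriptions over libraries that share groups and composition.

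The genes most like each receptor over the 12 libraries, of the 9105 whose mean was 5 FPKM or more, differed by receptor. For Tlr1 they were Kynu (r = 0.97), an enzyme of tryptophan breakdown, Eml4 (0.94) and Fcer2a (0.94), the low-affinity IgE receptor of B cells and a marker of the list above. For Tlr9 they were Hivep1 (0.97), a zinc finger factor, Ephx1 (0.95), an epoxide hydrolase, and Slc43a2 (0.94). For Tlr13 they were Entpd1 (0.96), the ectonucleotidase CD39, Ms4a6d (0.94) and Tgfbi (0.93). For Tlr8 they were Slc35f6 (0.92), Ccr2 (0.91), the chemokine receptor of monocytes and a marker of the monocyte list, and Pla2g7 (0.90).

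For Tlr7 the nearest genes were Dctn5 (0.93), Uba7 (0.92), the enzyme that activates the interferon-induced modifier ISG15, and C2cd3 (0.92). For Tlr2 they were Tbc1d9b (0.96), Flywch1 (0.96) and Atp6v0d1 (0.94), a subunit of the proton pump of lysosomes, and for Tlr6 Ppm1f (0.92), Hip1r (0.90) and Abhd17b (0.90). For Tlr3 they were Rasgef1b (0.92), Pkib (0.91) and Tspan15 (0.89), and for Tlr4 Mospd2 (0.88), Kctd20 (0.87) and Fam45a (0.85). Tlr5, the least abundant, had the lowest, with Pus7 (0.77), Mrpl10 (0.72) and Dph3 (0.72). The 3 genes of each receptor are the highest of 9105, so high values arise by the choice itself.

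L.J. against control asks what L.J. did without busulfan. Of all genes tested 0.0304% passed, and 0 of the 10 receptors did. By limma 1 of the 10, Tlr7, had an unadjusted p below 0.05, against 8.91% of all genes. Across the 10, 6 were higher and 4 lower, with a median log2 difference of 0.04 against 0.02 over all genes.

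Tlr7 read 13.78, 7.36 and 8.71 FPKM in the controls and 11.72, 12.32 and 19.79 with L.J. alone. The groups overlapped through control library 1, and L.J. library 3 was the highest of all 12. The means were 9.95 ± 3.38 and 14.6 ± 4.50 FPKM (SD, n = 3), which is 0.52 on the log2 scale (SE 0.24, limma adjusted p = 0.548). Without the 3 libraries of highest acinar score, which include L.J. library 3, the difference was 0.29.

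Irf7, the interferon regulatory factor activated downstream of Tlr7 and Tlr9, had the smallest p of the pathway genes here. It read 21.31, 11.93 and 16.23 FPKM in the controls and 27.99, 53.56 and 126.58 with L.J., higher by 1.78 on the log2 scale (SE 0.51, limma adjusted p = 0.548). L.J. library 3 was the highest in both genes. Next came Cnpy4, a chaperone that affects surface Tlr4, at 0.35, and Hsp90b1 at 0.55, with the same adjusted p.

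The remaining receptors differed by between -0.23 (Tlr9) and 0.27 (Tlr13) on the log2 scale with L.J. alone. Tlr2 was very even in this group, at 3.90, 3.98 and 3.92 FPKM. Tlr4 read 3.29, 3.31 and 3.63 FPKM, against 4.28, 3.62 and 3.33 in the controls, so the groups overlapped. Of the marker lists, all 9 acinar markers were higher with L.J. and 0 passed. All 3 kidney tubule markers were lower and 2 passed, beside 0.0304% of all genes. All 6 hepatocyte markers were lower and 0 passed. Of 8 B cell markers 7 were lower, and of 9 neutrophil markers 8 were higher, with 0 passed. Their part in the receptor differences was not tested.

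Busulfan + L.J. against busulfan asks what L.J. added in busulfan-treated mice. It held the most calls of the 6 contrasts, with 1.66% of all genes past the threshold, and 0 of the 10 receptors among them. The endosomal receptors Tlr7, Tlr9 and Tlr3 were higher with both agents, by 0.56 to 0.82 on the log2 scale. By limma they were the 3 of the 10 with an unadjusted p below 0.05, which is 30% and near the 23.2% of all genes. Of the 10, 8 were higher and 2 lower, with a median log2 difference of 0.20 against 0.05 over all genes. Tlr8 and Tlr13, also endosomal, differed by 0.06 and -0.01.

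Tlr7 read 6.62, 7.64 and 10.31 FPKM with busulfan and 15.56, 15.36 and 14.12 with busulfan + L.J. All 3 libraries given both agents lay above all 3 given busulfan, and above the controls as well, by a small margin over control library 1. The means were 8.19 ± 1.91 and 15.0 ± 0.78 FPKM (SD, n = 3), which is 0.82 on the log2 scale with an unadjusted 95% interval from 0.30 to 1.34 (limma adjusted p = 0.0836). It came to 0.98 without busulfan library 3, where it passed (limma adjusted p = 0.0344). Without the 3 libraries of highest acinar score, which leaves 1 busulfan library, it came to 0.50.

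Tlr9 read 9.87, 12.59 and 15.98 FPKM with busulfan and 21.93, 17.21 and 22.43 with both agents. The groups did not overlap, and the values with both agents lay in the range of the controls or just above it. The log2 difference was 0.65 (SE 0.21, limma adjusted p = 0.108). It was 0.82 without busulfan library 3 and 0.68 with library weights, with limma adjusted p of 0.0406 and 0.0402. Without the 3 libraries of highest acinar score, which leaves 1 busulfan library, it was 0.33.

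Tlr3 read 3.49, 5.20 and 4.68 FPKM with busulfan and 5.94, 8.17 and 6.97 with both. The groups did not overlap. On the log2 scale they differed by 0.56 (SE 0.22, limma adjusted p = 0.169), and by 0.30 with the acinar score as a covariate.

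Tlr2 was the surface receptor with the largest difference here. It read 5.61, 3.28 and 2.97 FPKM with busulfan and 5.45, 4.74 and 4.98 with both, so that busulfan library 1 held the highest value and the other 2 lay below every library given both. The log2 difference was 0.33 (interval -0.04 to 0.70). It passed the threshold without busulfan library 1 (0.55, limma adjusted p = 0.0351) and with library weights (0.45, adjusted p = 0.04).

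Tlr1 differed by 0.24 (interval -0.10 to 0.58). Without the 3 libraries of highest acinar score, which leaves 1 busulfan library, Tlr1 differed by -0.09. Tlr6 differed by 0.15, Tlr4 by 0.003 and Tlr5 by -0.02. Tlr4 read 5.0, 4.30 and 3.51 FPKM with busulfan and 4.34, 4.82 and 3.64 with both, with equal means of 4.27.

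The marker lists differed in this contrast too, and their counts stand beside 1.66% of all genes called. Of 8 B cell markers 7 were higher with both agents and 1 passed the threshold, Cd79b (1.03, limma adjusted p = 0.0441), and the summed level was 1997 to 2537 FPKM against 1316 to 2774 with busulfan. All 5 endothelial markers were higher and 3 passed, with 96.75 to 116 FPKM against 69.78 to 83.33. All 9 neutrophil markers were lower and 1 passed, Cxcr2, with 378 to 1055 FPKM against 1297 to 27010, and all 9 acinar markers were lower and 0 passed. Of 4 plasmacytoid dendritic cell markers 3 were higher and 0 passed, with 21.69 to 32.99 FPKM against 13.67 to 31.82. Of 6 monocyte markers 5 were lower and 0 passed, with a median log2 difference of -0.42. Higher were 6 of 7 red pulp macrophage, all 4 marginal zone macrophage and all 6 erythroid markers, with 0 passed. Of 6 conventional dendritic cell markers 5 were higher, and of 6 T cell markers 2 were, with 0 passed. Their part in the receptor differences was not tested, and no marker was at 0 throughout a group.

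**Figure D3:**
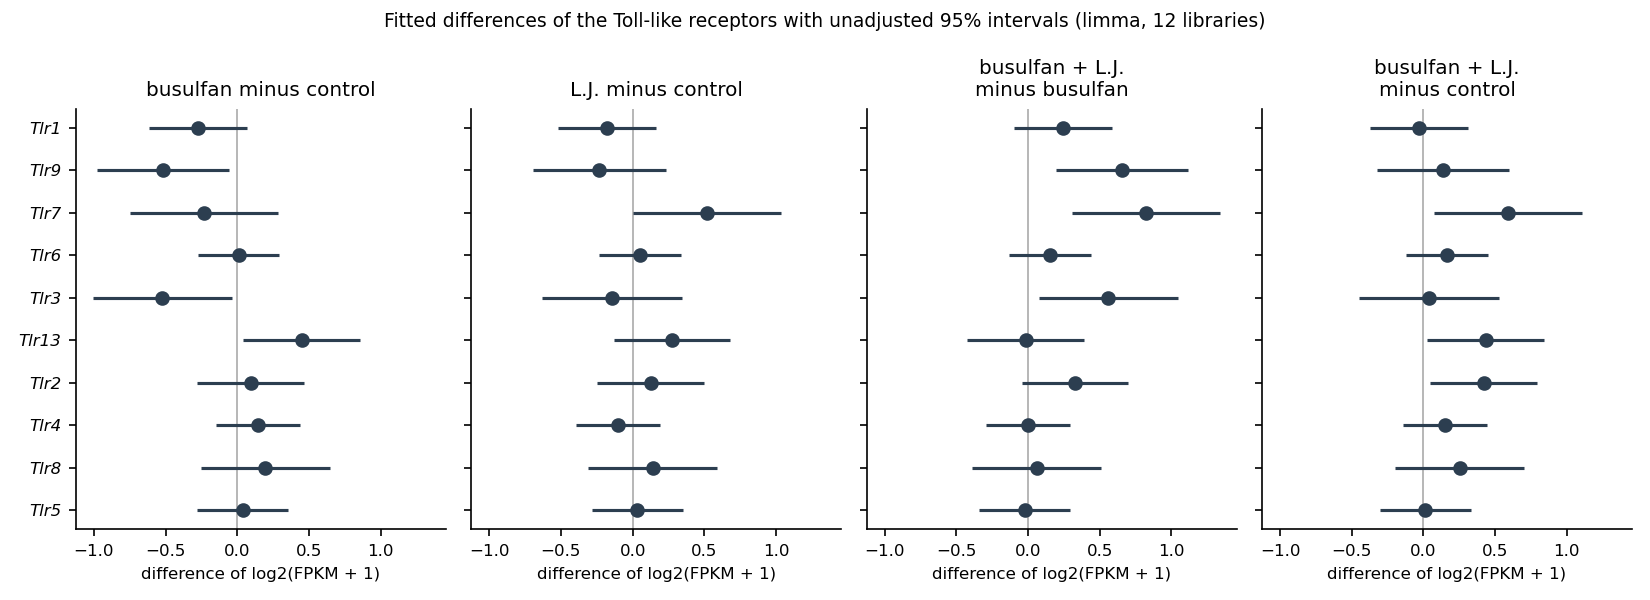
Fitted differences of log2(FPKM + 1) (horizontal axes) for each receptor, with points for the limma estimate and lines for the unadjusted 95% interval, in 4 contrasts over the 12 libraries. Tlr7 reaches 0.82 and Tlr9 0.65 in busulfan + L.J. minus busulfan, and the interval of Tlr6 includes 0 in all 4 panels.

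Other genes of the pathway were described from lists written by role. Of 65 genes 57 were tested, and with busulfan + L.J. against busulfan 42 were higher and 15 lower, beside 7476 higher and 5659 lower over all genes. The threshold was passed by 2, both higher, beside the 1.66% of all genes. By limma 16 of the 57 had an unadjusted p below 0.05, 13 higher and 3 lower, which is 28.1% and near the 23.2% of all genes. The median log2 difference was 0.14, against 0.05 over all genes.

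Slc15a4, a lysosomal histidine and peptide transporter needed for signalling by Tlr7 and Tlr9, was 1 of the 2. It read 14.31, 9.79 and 16.16 FPKM with busulfan and 25.58, 22.18 and 24.98 with both, against 19.94, 14.81 and 13.94 in the controls. Values with L.J. alone were 19.52, 21.99 and 22.10, so the libraries given both lay above all 9 others, library 2 by a narrow margin. It rose by 0.83 on the log2 scale (SE 0.17, limma adjusted p = 0.0435). The call held in 9 of 24 alternative settings, with the limma adjusted p between 0.00919 and 0.242. Without the 3 libraries of highest acinar score, which leaves 1 busulfan library, the difference came to 0.55.

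Cd36, a scavenger receptor that hands lipoproteins to Tlr2 with Tlr6 and also takes up fatty acids, was the other. It read 42.00, 58.87 and 55.91 FPKM with busulfan and 89.26, 105.15 and 96.86 with both, against 78.99, 71.18 and 59.10 in the controls. Every library given both lay above all 9 others. It rose by 0.89 (SE 0.15, limma adjusted p = 0.0372), and the call held in 13 of 24 settings, with the adjusted p between 0.00868 and 0.228. The endothelial markers given above were higher in the same libraries, and their part was not tested.

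Genes that fold receptors or carry them to the endosome differed in opposite directions, with no call beside that of Slc15a4. Unc93b1, which escorts Tlr3, Tlr7, Tlr9 and Tlr13 out of the endoplasmic reticulum and was chosen after its values were seen, read 108.58, 93.80 and 104.90 FPKM with busulfan and 139.30, 142.50 and 135.64 with both (0.44, SE 0.12, limma adjusted p = 0.0807). Hsp90b1 went the other way, at 594.03, 578.19 and 771.05 FPKM with busulfan and 378.01, 348.89 and 365.86 with both, and at 426.78, 346.39 and 396.36 in the controls. Its log2 difference was -0.82 (SE 0.19, limma adjusted p = 0.0541), with no overlap between the groups. With L.J. alone Hsp90b1 read 495.46, 478.04 and 774.13 FPKM. It is also a chaperone of secretory cells in general. The acinar and neutrophil markers were high in busulfan libraries 1 and 2. The highest busulfan value of Hsp90b1 was in library 3, with an acinar score of 3.48 and a neutrophil score of 5.41. The part of these cells was not tested.

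By role, the median log2 difference was 0.44 over 6 coreceptors and 0.37 over 7 transcription factors. It was 0.26 over 9 genes induced by the pathway and 0.11 over 7 chaperones and processing genes. It was 0.09 over 13 kinases and ubiquitin ligases, 0.01 over 8 inhibitors and -0.16 over 5 adaptors. Only the coreceptors and the chaperones held a called gene, 1 each. Ly86, which pairs with Cd180 on B cells, differed by 0.59 (limma adjusted p = 0.0571), the NF-kB subunit Rel by 0.69 (0.062 for its adjusted p), and the chemokines Ccl3 and Cxcl10 by 1.00 and 1.09 (0.0586 and 0.0704), none past the threshold, and the chemokines were chosen after their values were seen.

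**Figure D4:**
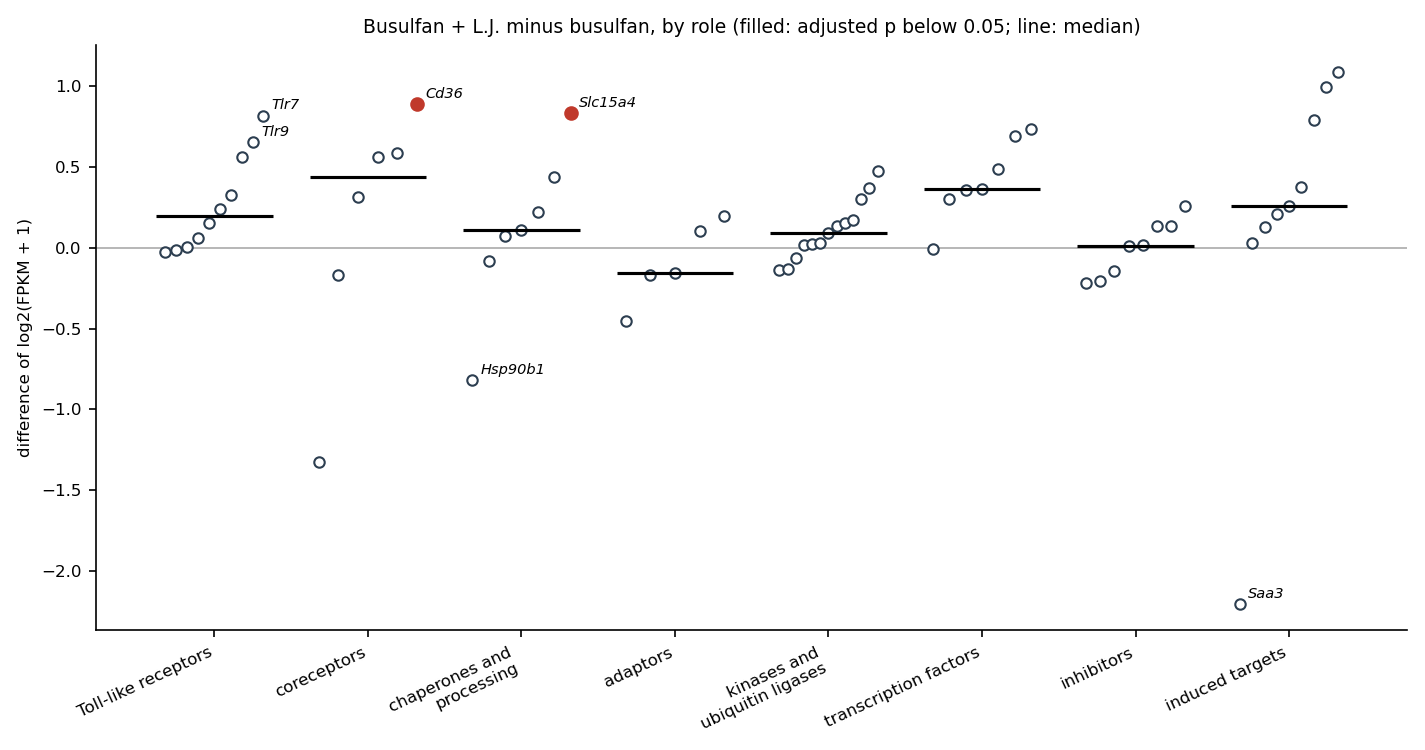
Differences of log2(FPKM + 1) between busulfan + L.J. and busulfan (vertical axis) for the Toll-like receptors and 7 groups of pathway genes (horizontal axis), with 1 point per gene, a line at the group's median and filled points past the threshold. Cd36 at 0.89 and Slc15a4 at 0.83 are filled, and Tlr7 at 0.82 is not.

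Busulfan + L.J. against control compares the combined treatment with the control mice. Of all genes tested 0.0609% passed, and 0 of the 10 receptors did. By limma 3 of the 10, Tlr2, Tlr7 and Tlr13, had an unadjusted p below 0.05, against 19% of all genes. Of the 10, 9 were higher and 1 lower, with a median log2 difference of 0.16 against 0.04.

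Tlr2 read 3.98, 3.06 and 3.57 FPKM in the controls and 5.45, 4.74 and 4.98 with both agents, with no overlap. The means were 3.54 ± 0.46 and 5.06 ± 0.36 FPKM (SD, n = 3), which is 0.42 on the log2 scale (SE 0.17, limma adjusted p = 0.233). With library weights it passed (0.37, adjusted p = 0.0411).

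Tlr7 differed by 0.59 (SE 0.24, limma adjusted p = 0.232) and Tlr13 by 0.44 (SE 0.19, limma adjusted p = 0.245). Tlr13 read 5.47, 6.24 and 6.11 FPKM with both, above all 3 controls. Tlr9, Tlr3 and Tlr1 were within 0.14 of the controls, and the interval of Tlr1 ran from -0.37 to 0.31. Of the pathway genes 0 of 57 passed. The smallest p belonged to Tbk1, a kinase that phosphorylates Irf3, at 0.41 (limma adjusted p = 0.172), followed by Slc15a4 at 0.56 and Cd36 at 0.48. Of the marker lists, all 3 kidney tubule markers were lower and all 3 passed, beside 0.0609% of all genes. All 6 hepatocyte markers were lower and all 9 acinar markers higher, with 0 passed. Of 8 B cell markers 5 were lower, and of 6 monocyte markers 5 were higher, with 0 passed. Their part in the receptor differences was not tested.

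Busulfan + L.J. against L.J. asks what busulfan did in mice given L.J. No gene passed, 0% of all tested, and by limma 0 of the 10 receptors had an unadjusted p below 0.05, against 5.61% of all genes. Of the 10, 9 were higher and 1 lower, with a median of 0.15 against 0.005 over all genes. Tlr9 differed by 0.37 (interval -0.09 to 0.83), and Tlr2 by 0.29, where its 3 libraries given both agents lay above all 3 given L.J. Tlr7 differed by 0.07 (interval -0.44 to 0.59). Hsp90b1 at -0.64, Cd36 at 0.46 and Rel at 0.37 had the smallest p of the pathway genes, with 0 of 57 past the threshold.

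Whether L.J. went with another difference in mice given busulfan than in mice without it was tested as an interaction. No gene passed, 0% of all tested, and 2 of the 10 receptors had an unadjusted p below 0.05, against 11.5% of all genes. Tlr9 was lower with L.J. by 0.23 without busulfan and higher by 0.65 with it, an interaction of 0.89 (SE 0.30, interval 0.23 to 1.54, limma adjusted p = 0.301). Tlr3 was at -0.14 and 0.56, an interaction of 0.71 (SE 0.31, limma adjusted p = 0.419). Tlr7 was higher with L.J. on both backgrounds, by 0.52 and 0.82, and its interaction of 0.30 had an interval from -0.43 to 1.03, which covers 0 and also the value of Tlr9. Among the pathway genes Hsp90b1 (-1.37, adjusted p = 0.182), Cd36 (0.88, 0.198) and Cd180 (1.04, 0.223) had the smallest p by limma, and 0 of 57 passed.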

How the data were processed

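RNA of 12 spleen libraries was sequenced, and the authors deposited 1 table of FPKM values, a unit given per the file headers, with 2 decimals for 21004 genes. Per the submitters' processing notes, Bowtie 0.12.2 and the mm10 build were used, without their roles. Not given in the sources used here are the counting tool, annotation, strand and filters. Because FPKM divides by each library's total, abundant transcripts of another tissue lower the values of all other genes. Columns were matched to samples by name and groups taken from the labels. The depth is unknown, and no count test was run.

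Values were analysed as log2(FPKM + 1), which understates differences of weakly expressed genes, computed from the deposited FPKM. A gene was tested if any group averaged 1 FPKM or more (13138 genes). Limma 3.58.1 (limma-trend, robust empirical Bayes, R 4.3.3) fitted the 4 group means to the 12 libraries together, and 6 contrasts were taken. Scripts were tested on simulated data. Tables and motif searches used Python 3.11.15 and pandas 2.3.3.

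The members, gene lists and tests were chosen with earlier results of these data known. The rule for naming took all 10 receptors, pathway genes past the threshold or with the 3 smallest p in a contrast, and the 3 genes most correlated with each receptor. Unc93b1, Ccl3, Cxcl10 and the called markers Cd79b, Cxcr2 and Slc34a1 fell outside it and were chosen after their values were seen. Coordinates and promoter sequences are from RefSeq (GRCm38.p6) and coding sequences from GENCODE M21. Of the pathway genes, Ifnb1 had no row and Acod1, Cxcl1, Cxcl2, Il10, Il6, Ptgs2 and Sarm1 fell below the filter.

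Alternatives were 2 other scalings, library weights, no robust option, 2 other filters, pseudocounts of 0.1 and 5, the groups compared alone, the fit without each library in turn, a replicate block, the acinar score as a covariate, and leaving out the 3 libraries of highest acinar score. Those 3 are busulfan libraries 1 and 2 and L.J. library 3.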

Additional observations from a re-analysis of the deposited data

How the results depend on the processing

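The count of receptors past the threshold was 0 in all 6 contrasts as reported. With library weights it was 2 for busulfan + L.J. against busulfan (Tlr2 and Tlr9) and 1 for busulfan + L.J. against control (Tlr2). Leaving out 1 library at a time it ranged from 0 to 1 for busulfan against control and from 0 to 2 for busulfan + L.J. against busulfan, and every call so gained came from leaving out busulfan library 3 (Tlr13 in the first contrast, Tlr7 and Tlr9 in the second) or busulfan library 1 (Tlr2). Of 1422 receptor values under alternatives, 76 changed sign, none of them past the threshold, and 7 were called. The cause was not tested.

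The count of all genes called for busulfan + L.J. against busulfan ranged from 0, when only the groups compared were fitted, to 1989 with library weights. For busulfan against control it ranged from 0 to 829, the latter without busulfan library 3, for busulfan + L.J. against control from 3 to 1483, for L.J. against control from 0 to 23, for busulfan + L.J. against L.J. from 0 to 1, and for the interaction from 0 to 511. The pathway genes called for busulfan + L.J. against busulfan ranged from 0 to 18, with 14 without busulfan library 3 and 0 with the acinar score as a covariate. Depth is unknown, and Tlr4, Tlr5 and Tlr8 left the fit at a filter of 5 FPKM.

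With the replicate block, 0 receptors were called in every contrast, and Slc15a4 no longer passed for busulfan + L.J. against busulfan (limma adjusted p = 0.0535). Whether equal numbers mark paired libraries cannot be decided from these values, with 3 libraries a group. Of 18 same-numbered pairs, 8 had a correlation of deviations from group means above 0.1 (range -0.307 to 0.325, median 0.028). The 36 pairs of unlike number ranged from -0.401 to 0.372, with a median of -0.03. Of 12 libraries 5 correlated best with a library of their own number.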

Other observations

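Tlr11 and Tlr12, mouse receptors that bind profilin of protozoan parasites and that are not among the 10, had group means of 2.38 to 3.15 and 2.44 to 3.07 FPKM, above every value of Tlr5. Tlr11 read 2.72, 2.18 and 2.24 FPKM in the controls, 2.14, 2.48 and 3.21 with busulfan, 2.41, 3.16 and 2.24 with L.J. and 3.0, 3.02 and 3.44 with busulfan + L.J. The 3 libraries given both agents lay above the 3 controls, by a log2 difference of 0.30 (limma adjusted p = 0.268), and the other groups overlapped. Tlr12 read 1.83, 1.78 and 3.71 FPKM in the controls and 3.31, 2.90 and 2.47 with busulfan + L.J., which overlapped. Neither passed the threshold in any contrast by limma.

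The ratio of Tlr1 to Tlr6, the alternative partners of Tlr2, was 8.50, 7.61 and 8.48 in the controls, 5.11, 7.09 and 8.31 with busulfan, 7.61, 6.33 and 6.94 with L.J. and 7.23, 7.68 and 6.29 with busulfan + L.J. Busulfan library 1 was the lowest. The summed FPKM of the 10 receptors ranged from 93.91 to 131 in the controls, from 86.91 to 107 with busulfan, from 102 to 110.28 with L.J. and from 116 to 128 with busulfan + L.J., and the 3 libraries given both agents lay within the range of the controls.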
